A study of Mus musculus with 25 samples.

Results

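The 40 genes described here encode proteins that copy chromosomal DNA, and they were chosen by symbol as parts of the replication machinery. Of these, 39 had a probe set of their own on the array, among 18193 such genes in all. Chaf1a, a subunit of chromatin assembly factor 1, was matched to no probe set of its own and enters only with its promoter. Each gene was read from 1 probe set, the one with the highest mean over all arrays. Cells of the mouse macrophage line RAW 264.7, a leukemia virus-transformed line, were kept in medium with fetal bovine serum and treated near confluence with hypochlorous acid (HOCl), the oxidant of activated neutrophils, for 6 h. Untreated cells (0 mM) gave 4 Affymetrix mouse whole-genome arrays, and every treated group gave 3, so that 25 were used. The low doses were 0.14, 0.35 and 0.7 mM, and the higher doses were 1.4, 2.1, 2.8 and 3.5 mM. All groups share the line and the medium, and the labels name no genetic change. The labels call the replicates biological and do not tie them to separate days or cultures, so the p-values measure the spread between these arrays. The question was whether the replication genes change with the dose of HOCl.

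Replication starts at sites marked by the origin recognition complex (Orc1, Orc2, Orc6), where Cdc6 and Cdt1 load the ring-shaped Mcm helicase and geminin (Gmnn) blocks a repeated loading. Cdc45 and the GINS complex turn the loaded ring into a working helicase, RPA coats the exposed single strand, and polymerase alpha with primase starts each strand. Replication factor C then places the sliding clamp PCNA, polymerases delta and epsilon extend the strands, Fen1 and Lig1 finish the lagging strand, ribonucleotide reductase and thymidylate synthase supply nucleotides, and chromatin assembly factor 1 deposits histones on the new DNA. Many of these genes are transcribed in bursts around the entry into S phase, under factors of the E2F family, and macrophage lines such as this one divide in culture. In a bulk RNA sample, fewer cells in S phase and less RNA per cell cannot be told apart.

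Promoter windows are shown because many of these genes are known targets of E2F and of the CCAAT-binding factor NF-Y, and because 15 or more of them shared a direction in some comparisons below. RefSeq windows of GRCm38.p6, from 250 bases before to 50 bases after the start, were matched for 32 of the 40 genes. The E2F letters searched were TTTGGCGC, TTTCCCGC, TTTGCCGC and TTTCGCGC, on both strands, and for NF-Y the letters CCAAT on both strands. E2F letters were found in 11 of the 32 windows (34.4%), against 2.32% of the windows of 27025 genes. CCAAT was found in 21 of 32 (65.6%), against 37.9%, and both kinds in 7 (21.9%), against 1.01%. The 11 with E2F letters were Mcm3, Mcm5, Mcm6, Mcm7, Cdc6, Cdt1, Orc1, Rfc3, Pola1, Pold1 and Pole2. A match is a description of these letters and shows no binding.

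Windows are printed for 3 of the genes with the lowest p of the test among treated doses given below, as examples of both kinds of letters, of CCAAT alone and of neither. Matched letters are in capitals. Mcm7 (chr5:138171834-138172133, minus strand) held E2F letters at 2 places and CCAAT at 3, the pair nearest the transcript start overlapping by a shared base. Rpa3 (chr6:8259092-8259391, minus strand) held CCAAT at 2 places. The window of Tyms (chr5:30073576-30073875, minus strand) held neither.
Mcm7 promoter window: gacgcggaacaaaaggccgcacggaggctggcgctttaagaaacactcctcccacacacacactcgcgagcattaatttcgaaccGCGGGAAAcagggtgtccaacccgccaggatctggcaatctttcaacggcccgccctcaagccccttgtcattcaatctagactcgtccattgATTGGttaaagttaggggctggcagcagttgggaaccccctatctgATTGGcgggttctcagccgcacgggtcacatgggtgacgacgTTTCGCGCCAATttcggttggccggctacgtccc
Rpa3 promoter window: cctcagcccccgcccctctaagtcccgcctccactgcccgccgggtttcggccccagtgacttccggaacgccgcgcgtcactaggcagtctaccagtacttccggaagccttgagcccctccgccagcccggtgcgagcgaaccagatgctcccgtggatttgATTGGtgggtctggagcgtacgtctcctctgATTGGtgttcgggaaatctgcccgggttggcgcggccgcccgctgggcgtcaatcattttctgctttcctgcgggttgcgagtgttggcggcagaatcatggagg
Tyms promoter window: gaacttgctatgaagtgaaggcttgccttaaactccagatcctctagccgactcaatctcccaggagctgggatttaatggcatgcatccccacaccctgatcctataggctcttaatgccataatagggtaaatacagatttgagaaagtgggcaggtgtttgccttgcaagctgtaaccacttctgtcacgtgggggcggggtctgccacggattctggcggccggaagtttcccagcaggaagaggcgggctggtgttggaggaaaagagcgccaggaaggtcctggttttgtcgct

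Values are log2 signals with each array's median at 0, with a precision that the few arrays per dose limit. A set of 8 probe sets for added control transcripts read low on 11 arrays, namely every 0 and 0.14 mM array plus the first 2 replicates of 0.35 and of 0.7 mM, and high on the other 14. From 1.4 mM upwards this spike level and the dose cannot be told apart in a comparison with 0 or 0.14 mM, while 2.1 and 3.5 mM share the high level. Some macrophage transcripts were high on every array, Lyz2 (lysozyme) at 7.82 to 8.35 and Csf1r (the receptor of macrophage growth factor) at 7.14 to 7.89, but not all were: of 10 in the list, Adgre1 (F4/80) was the lowest at 1.35 to 3.64, with Itgam at 1.73 to 3.60 and Fcgr1 at 2.35 to 5.09. Markers of other cells ran from a median over arrays of -0.92 for Cd3g of T cells to 1.49 for Epcam of epithelia, and their mean lay between -0.23 and 0.09 on all 25 arrays.

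The replication genes moved together from array to array, and some of that movement separated arrays of the same dose. Their mean log2 signal was 3.82, 3.35, 4.09 and 3.31 on 0 mM replicates 1 to 4. It was 3.76, 3.94 and 3.92 at 0.14 mM, then 3.74, 3.51 and 3.81 at 0.35 mM and 3.81, 3.21 and 3.92 at 0.7 mM. At 1.4 mM it was 2.50, 3.81 and 3.61, and at 2.1 mM 3.40, 3.30 and 3.16. The 2.8 mM arrays gave 4.25, 3.21 and 3.17, and the 3.5 mM arrays 4.55, 3.86 and 3.84. The arrays of 0.14 and 2.1 mM were close to each other within their dose, whereas replicate 1 stood low at 1.4 mM and high at 2.8 and 3.5 mM. On 1.4 mM replicate 1, 29 of the 39 genes had their lowest value of all 25 arrays, and on 3.5 mM replicate 1, 29 had their highest. Extremes over the 25 arrays were not counted for all probe sets. Within its dose, 1.4 mM replicate 1 read below both other arrays for 38 genes and 38.5% of all probe sets. Likewise, 3.5 mM replicate 1 read above both for 36 genes and 40.8% of probe sets. On 0.7 mM replicate 2 all 39 lay below both other arrays of the dose, as did 38.7% of all probe sets. The median SD of the 39 genes was 0.697 at 1.4 mM, 0.685 at 2.8 mM and 0.509 at 0 mM, and 0.104 and 0.120 at 0.14 and 2.1 mM. Over all probe sets the median SD at those doses was 0.137, 0.130, 0.184, 0.120 and 0.106.

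**Figure D1:**
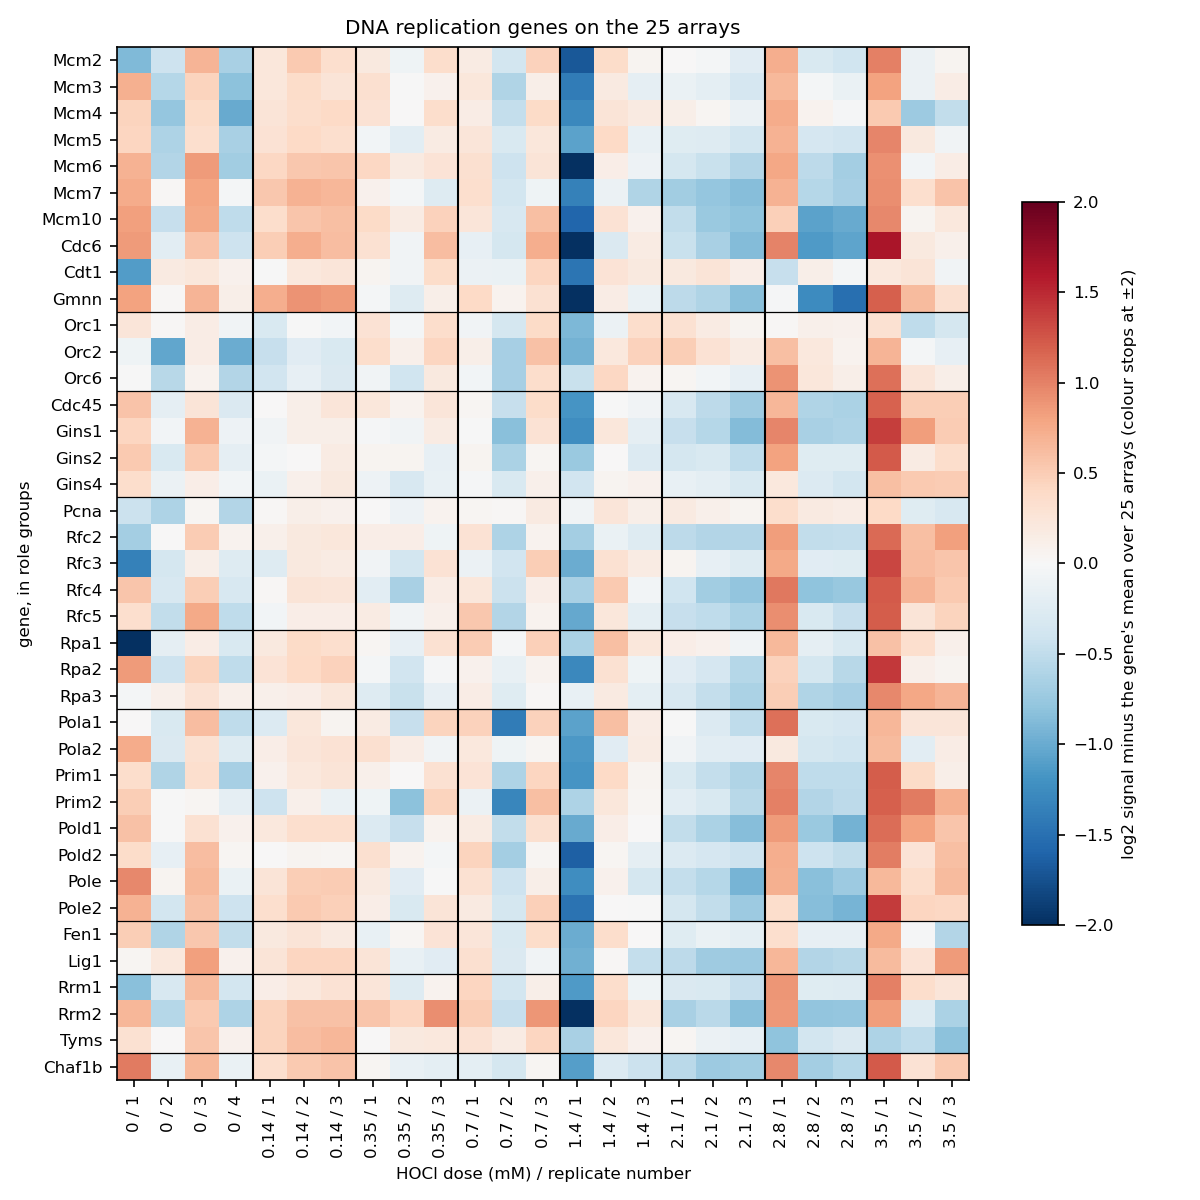
Heat map of 39 DNA replication genes (rows, in role groups) on 25 arrays (columns, HOCl dose in mM and replicate number). Colour gives the log2 signal minus the gene's mean over the 25 arrays and stops at ±2; the column of 1.4 mM replicate 1 is blue for nearly all genes, and that of 3.5 mM replicate 1 red for nearly all.

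The untreated arrays were split. For 31 of 39 genes, 0 mM replicates 1 and 3 both read above replicates 2 and 4, an order held by 25.4% of all probe sets. The opposite order was held by 0 genes and by 24.9% of probe sets. Mcm6 had the widest gap, with 5.94 and 6.09 on replicates 1 and 3 against 4.66 and 4.55 on replicates 2 and 4. The mean of 16 immediate early genes, which are switched on within minutes of a stimulus, ran the other way, at 2.33 and 2.24 on replicates 1 and 3 and 3.79 and 3.67 on replicates 2 and 4. What separates these arrays was not tested. The 8 genes outside the split order were Mcm2, Cdt1, Rfc2, Rfc3, Rpa1, Rpa3, Lig1 and Rrm1, and replicate 1 gave the lowest untreated value of each.

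In part of these, the low value on 0 mM replicate 1 belonged to a single probe set. Rpa1, the large subunit of RPA, read 2.57 there and 5.63, 5.97 and 5.51 on the other 3 untreated arrays, while its second probe set read 5.40 on replicate 1 and 4.55, 5.11 and 4.39 on the others. Rfc3 read 1.15 on replicate 1 against 2.14, 2.61 and 2.24, and its second probe set had 3.04 there, its highest untreated value. Rrm1 had 3.68 on replicate 1 against 4.21, 5.16 and 4.15, with 4.35 against 3.55, 4.66 and 3.62 from a second probe set. In Mcm2 both probe sets were lowest on that array, at 3.15 and 1.19. Because the 0 mM arrays disagree to this extent, each dose was compared with 0.14 mM as well. There 30 of 39 genes had all 3 arrays within the 0 mM range, but the split makes that range wide. Against 0 mM, 32 of 39 differences at 0.14 mM were above 0, so 0.14 mM is a separate reference and no substitute for untreated cells.

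**Figure D2:**
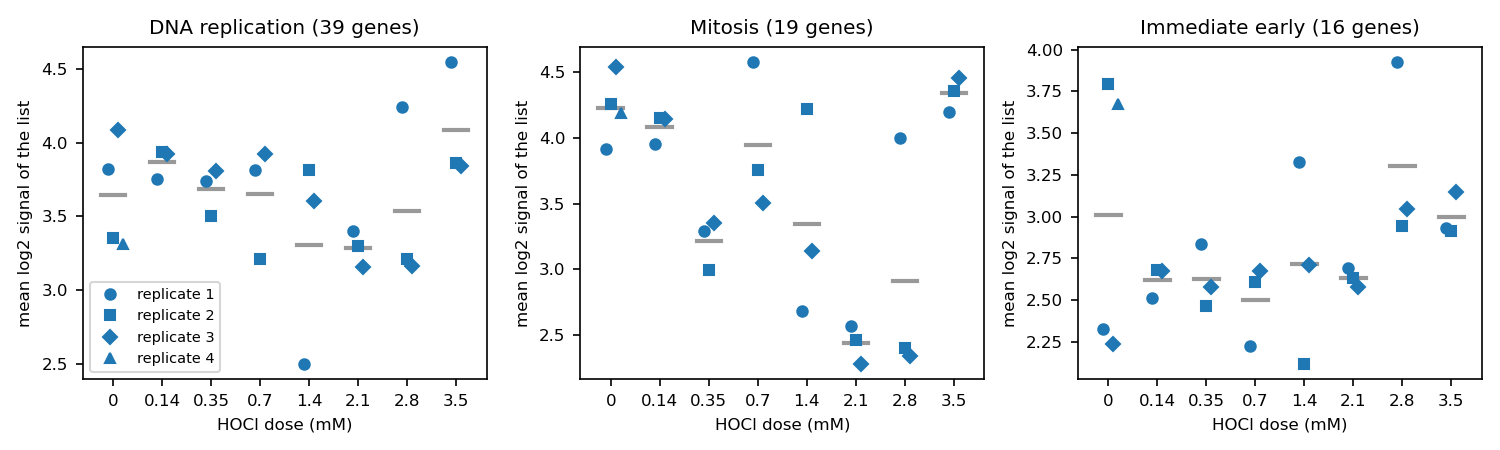
Mean log2 signal of 3 gene lists on each array, by HOCl dose (mM); symbols mark the replicate number and grey bars the dose means. The replication mean of 1.4 mM replicate 1 is 2.50 and that of 3.5 mM replicate 1 is 4.55, and the immediate early mean splits the untreated arrays the opposite way.

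An F test over the 7 doses against 0 mM called 8 of 39 genes (limma, Benjamini-Hochberg adjusted p under 0.05 over 45037 probe sets), or 20.5%, and 24.7% of all probe sets. Among the 7 treated doses alone, an F test of their differences again called 8, against 21.6% of all probe sets. Its spread was still pooled over all 25 arrays, the untreated ones included. The share of genes that passed was near the background in both of these tests. The genes were the same in both tests. They were Mcm7, Gmnn, Gins4 (a GINS subunit), Rfc2 (a clamp loader subunit), Rpa3 (the small RPA subunit), Lig1 (DNA ligase), Tyms (thymidylate synthase) and Chaf1b (the middle subunit of chromatin assembly factor 1). With array weights, which ran from 0.174 for 0 mM replicate 1 to 4.96 for 2.1 mM replicate 2, the same tests called 31 and 24 of 39, and 62.2% and 56.6% of all probe sets. Unweighted, both counts fell to 4 or rose to 14 with single arrays left out. Leaving out 2.8 mM replicate 1 gave 14 in both. The first test called 4 when 3.5 mM replicate 3 was omitted and 5 when replicate 2 or 3 of 2.1 mM was. The second called 4 when 3.5 mM replicate 1 or 3 was omitted, and 5 for the omission of 3.5 mM replicate 2 or of replicate 2 or 3 of 0.14 or 2.1 mM.

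At the 3 lowest doses no replication gene passed the test against 0 mM. The percent of all probe sets called was 0.00444% at 0.14 mM, 6.43% at 0.35 mM and 0.133% at 0.7 mM, and 2 of the 39 genes had an unadjusted p under 0.05 at each (limma). Median log2 differences of the 39 genes were 0.23, 0.08 and -0.07, beside 0.02, 0.03 and 0.03 over all probe sets. Against 0.14 mM none was called at 0.35 mM (3.37% of probe sets) or at 0.7 mM (0.0111%), with unadjusted p under 0.05 for 3 and 1 (limma). At 0.35 mM the values of 11 genes lay below all 0.14 mM arrays and 1 above, where 11.9% and 9.65% of probe sets did so. Against 0 mM, leaving out 0 mM replicate 3 gave 1 called gene at 0.35 mM and 1 at 0.7 mM, and leaving out 2.8 mM replicate 1 gave 1 at 0.35 mM. With array weights the counts against 0 mM were 18, 5 and 3, all higher. Of all probe sets 18.5%, 24.7% and 17.6% were then called in either direction. At 0.35 against 0.14 mM the weighted count was 5 (16.6%). The weights of 0 mM replicates 1 to 4 were 0.174, 1.4, 0.393 and 2.93. Each weighted comparison with 0 mM thus leans on replicates 2 and 4, where most of these genes read lower.

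At 1.4 to 2.8 mM the dose means of most replication genes were lower than at 0 mM. The median log2 difference was -0.35 at 1.4 mM, -0.48 at 2.1 mM and -0.21 at 2.8 mM. At 1.4 mM the low array was replicate 1. The mean over the genes was 2.50 there and 3.81 and 3.61 on the others, beside 3.64 at 0 mM. At 2.8 mM replicate 1, at 4.25, lay above every untreated array, and the others, at 3.21 and 3.17, below. Few genes passed the test. At 1.4 mM limma called 2 of 39 (7.81% of all probe sets), Mcm7 lower and Pcna, the sliding clamp, higher. At 2.1 mM it called 5 (13.4% of probe sets), with 4 lower (6.09%), which were Mcm7, Lig1, Rpa3 and Pole (the catalytic subunit of polymerase epsilon), and Pcna higher (7.26%). At 2.8 mM it called 3 (11.9% of probe sets), Gmnn and Tyms lower and Pcna higher. Counted in both directions, the shares called were thus below those of all probe sets. At 2.1 mM the 4 of 39 called lower were a larger share than the 6.09% of probe sets. At 2.1 mM the arrays of 15 genes lay below every untreated array, 38.5% of the genes where 11.9% of probe sets did so, and those of 2 genes, Pcna and Orc2, lay above, where 16.2% did.

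Single arrays moved these counts. At 1.4 mM the omission of 0 mM replicate 1 or of 1.4 mM replicate 1 or 3 gave 0, that of 2.8 mM replicate 1 gave 5, and that of any of 16 other arrays gave 1. At 2.1 mM the count was 0 with replicate 2 or 3 of that dose omitted, 1 with its replicate 1 omitted and 2 with 0 mM replicate 1 omitted. It was 3 when 0 mM replicate 3, any 0.14 mM array, 0.35 mM replicate 1 or 3.5 mM replicate 3 was omitted. At 2.8 mM it was 9, of which 8 lower, after the omission of 2.8 mM replicate 1. With array weights the counts were 13 at 2.1 mM (38.7% of probe sets) and 11 at 2.8 mM (31.4%). With spike level as a term the counts at 1.4, 2.1 and 2.8 mM were 0.

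Against 0.14 mM, whose arrays agreed closely, more genes had all arrays lower at 2.1 mM. The 0.14 mM means over the genes (3.76, 3.94 and 3.92) lay nearer untreated replicates 1 and 3 (3.82 and 4.09). Those of 2.1 mM (3.40, 3.30 and 3.16) lay nearer untreated replicates 2 and 4 (3.35 and 3.31). The difference between these doses is thus similar in size to the split among untreated arrays. The 3 arrays of 2.1 mM lay below all 3 of 0.14 mM for 31 of 39 genes, or 79.5%, and above them for 2, Orc1 and Orc2. Of all probe sets 20.7% lay below and 25.4% above. The median log2 difference was -0.63 over the genes and 0.01 over all probe sets. With the spread pooled over all 8 doses limma called 5 of 39 (12.2% of probe sets), and these were lower (5.04%): Mcm7, Gmnn, Lig1, Tyms and Chaf1b. A fit of these 6 arrays alone, whose own spread is smaller than the pooled one, called 30 of 39, with 29 lower and 1 higher, where it called 32% of all probe sets. The pooled count was 9 when 2.8 mM replicate 1 was omitted, 2 when replicate 1 of either compared dose was and 1 when replicate 2 or 3 of either was. With array weights it was 27 (45% of probe sets), and with spike level as a term 0.

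At 1.4 mM limma called 3 genes lower than at 0.14 mM (7.11% of probe sets), Mcm7, Gmnn and Tyms, and the count was 0 when 1.4 mM replicate 1 or any 0.14 mM array was omitted and 5 when 2.8 mM replicate 1 was. At 2.8 mM it called 2 (11.4%), Gmnn and Tyms, both lower, and 10 when its replicate 1 was omitted or 1 when its replicate 2 or 3 was. The 3.5 mM arrays gave Rpa3 higher and Tyms lower (10.9%), and 15 genes lay above all 0.14 mM arrays, where 21.4% of probe sets did. That count of 2 was 4 when 2.8 mM replicate 1 was omitted and 1 when any of 16 other arrays was. With array weights the counts against 0.14 mM were 9 at 1.4 mM (21.8% of probe sets), 21 at 2.8 mM (37%) and 5 at 3.5 mM (23.2%).

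At 3.5 mM most signals were not below those of untreated cells. The median log2 difference against 0 mM was 0.44 over the 39 genes and 0.08 over all probe sets, and 36 of 39 differences were above 0. Limma called 3 (9.32% of probe sets): Rfc3 2.45-fold higher, Rpa3 1.61-fold higher and Tyms 1.85-fold lower. The arrays of 6 genes lay above every untreated array, where 11.9% of probe sets did. Rfc3 had 3.82, 3.11 and 3.05 at 3.5 mM, but its call rests partly on its low value on 0 mM replicate 1: without that array the log2 difference was 1.00 (limma, adjusted p = 0.0627), and its second probe set gave 0.62 (adjusted p = 0.198). Omitting 3.5 mM replicate 1 left 1 call, that of Tyms, and omitting 0 mM replicate 3, 0.7 mM replicate 2 or 2.8 mM replicate 1 gave 5. With array weights the count was 13 (16.3% of probe sets).

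Of the dose pairs tested in the main fit, 2.1 and 3.5 mM differed in the most genes called. At 2.1 mM 22 of the 39 genes had their lowest dose mean, and at 3.5 mM 24 had their highest. Such extremes were not counted for all probe sets. These doses were therefore set against each other after their values had been seen. The p-values and the shares of the 39 genes carry that choice, whereas the shares of all probe sets do not. Both doses have the high spike level and neither comparison arm uses untreated arrays, though the pooled spread includes them. Limma called 17 of 39, or 43.6%, where it called 17% of all probe sets, with 16 higher at 3.5 mM (7.66%) and Tyms lower (9.38%). The arrays of 28 genes lay above all 2.1 mM arrays, or 71.8%, where 20.8% of probe sets did. The median log2 difference was 0.95 over the genes and 0.05 over all probe sets. Without 3.5 mM replicate 1, the highest array, 7 were called: Mcm7, Gins1, Gins4, Rfc2, Rpa3, Pold1 and Lig1, and these passed in each of the 33 alternatives tried. The count was 11, 9 and 8 without 2.1 mM replicates 1, 2 and 3.

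**Figure D3:**
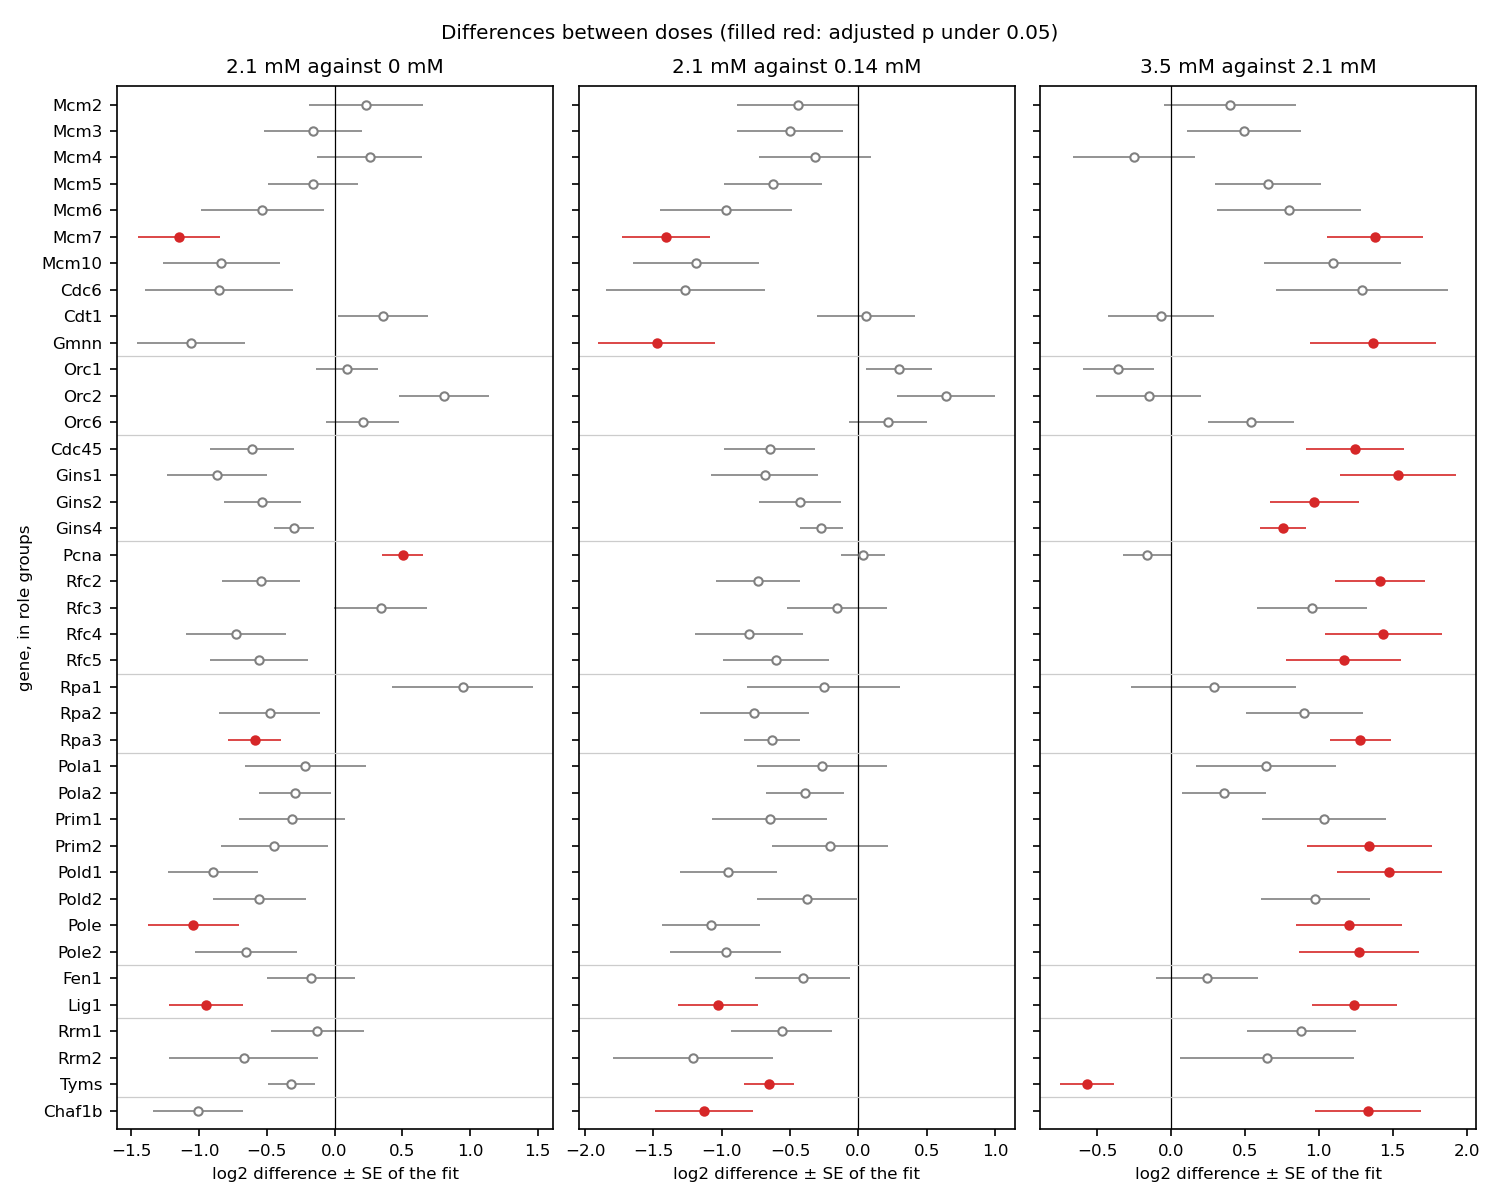
Log2 differences of dose means for each gene (rows, in role groups), with the standard error of the limma fit, for 2.1 against 0 mM, 2.1 against 0.14 mM and 3.5 against 2.1 mM. Filled red points passed an adjusted p under 0.05: 5, 5 and 17 of 39.

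Among the genes of helicase loading, Mcm7, a subunit of the Mcm ring, varied most clearly. Its log2 signals were 6.14, 5.42, 6.19 and 5.36 at 0 mM and 5.94, 6.09 and 6.07 at 0.14 mM. They were 5.49, 5.36 and 5.14 at 0.35 mM, 5.73, 5.03 and 5.31 at 0.7 mM and 4.05, 5.28 and 4.80 at 1.4 mM. At 2.1 mM they were 4.71, 4.62 and 4.56, at 2.8 mM 6.10, 4.83 and 4.74, and at 3.5 mM 6.32, 5.73 and 5.97. All 2.1 mM arrays lay below every array of 0, 0.14 and 3.5 mM. Mcm7 fell 2.22-fold from 0 to 2.1 mM (log2 -1.15, SE 0.302; limma, adjusted p = 0.0156) and 2.65-fold from 0.14 mM (log2 -1.41, SE 0.323; limma, adjusted p = 0.00756). The call against 0 mM was lost in 4 of 33 alternatives, the omissions of 2.1 mM replicate 2 or 3 among them. From 2.1 to 3.5 mM Mcm7 was 2.60-fold higher (log2 1.38, SE 0.323; limma, adjusted p = 0.00536). All 4 of its probe sets were lower at 2.1 than at 0.14 mM, at log2 -1.41, -1.35, -1.28 and -0.82, and those of -1.41 and -1.28 passed the test.

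Geminin, the inhibitor of origin loading, had the widest range of dose means of all 39 genes, 1.75 in log2, from 4.90 ± 0.0866 (SD, n = 3) at 0.14 mM to 3.15 ± 0.798 (SD, n = 3) at 2.8 mM. Its signals were 4.88, 4.10, 4.76 and 4.18 at 0 mM, 4.80, 4.97 and 4.92 at 0.14 mM, 3.55, 3.47 and 3.24 at 2.1 mM, 4.06, 2.82 and 2.57 at 2.8 mM and 5.26, 4.70 and 4.40 at 3.5 mM. Every array of 2.1 and 2.8 mM lay below all arrays of 0, 0.14 and 3.5 mM. Geminin fell 2.52-fold at 2.8 mM against 0 mM (limma, adjusted p = 0.0343) and 3.37-fold against 0.14 mM (adjusted p = 0.0112). These calls were lost in 7 and 3 of 33 alternatives, both of them when 2.8 mM replicate 2 or 3 was omitted and the first also when 0 mM replicate 1 or 3 was. Its partner Cdt1, the loader that it binds, had a log2 difference of 0.05 at 2.1 against 0.14 mM (SE 0.358; limma, adjusted p = 0.941), with 5.72, 5.78 and 5.66 at 2.1 mM. The probe sets of Cdt1 differed here. Another bright one was lower, with 4.37, 4.46 and 4.49 at 0.14 mM and 4.14, 4.15 and 4.01 at 2.1 mM. A dim one was higher, with -1.78, -1.56 and -1.63 and then -1.38, -1.41 and -1.25.

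Cdc6, which loads the Mcm ring with Cdt1, showed how far single arrays reached. It read 3.50, 2.43, 3.22 and 2.24 at 0 mM, 0.29, 2.35 and 2.80 at 1.4 mM, 3.64, 1.50 and 1.60 at 2.8 mM and 4.27, 2.85 and 2.75 at 3.5 mM. At 2.1 mM all 3 arrays (2.20, 1.99 and 1.78) lay below every untreated array, but the log2 difference of -0.85 (SE 0.544) did not pass the test (limma, adjusted p = 0.324). Mcm2, Mcm3, Mcm4, Mcm5 and Mcm6, the other subunits of the Mcm ring, had log2 differences from -0.53 (Mcm6) to 0.26 (Mcm4) at 2.1 against 0 mM and from -0.97 (Mcm6) to -0.32 (Mcm4) against 0.14 mM. None of these 5 passed the test in either comparison. For each of them the 2.1 mM arrays lay below all 0.14 mM arrays. Mcm10, which helps start the helicase, had -0.84 and -1.19 and was called in neither.

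In the origin recognition complex no gene was called in any of these comparisons. Orc2 and Orc1 were the 2 genes whose 2.1 mM arrays all lay above those of 0.14 mM, with log2 differences of 0.64 (SE 0.357; limma, adjusted p = 0.25) and 0.30 (SE 0.243; limma, adjusted p = 0.443). Orc2 read 3.17, 2.22, 3.40 and 2.25 at 0 mM and 3.74, 3.54 and 3.42 at 2.1 mM. Orc1 had the narrowest range of dose means of the 39 genes, 0.42. Orc6 had log2 differences of 0.21 at 2.1 mM and 0.75 at 3.5 mM against 0 mM.

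Genes of helicase activation were all 4 called between 2.1 and 3.5 mM. Gins1 read 2.51, 2.41 and 2.11 at 2.1 mM and 4.35, 3.81 and 3.47 at 3.5 mM, 2.90-fold higher (log2 1.54, SE 0.394; limma, adjusted p = 0.00984), the widest difference of the 39. Gins4 had 2.93, 2.89 and 2.77 at 2.1 mM and 3.68, 3.60 and 3.58 at 3.5 mM, and was 1.69-fold higher (limma, adjusted p = 0.00224). Cdc45 and Gins2 were 2.37-fold and 1.96-fold higher. Against 0 mM the 4 genes had log2 differences of -0.30 to -0.87 at 2.1 mM, with all arrays below the untreated ones and none called.

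The clamp and its loader genes were called in different comparisons, and no loader gene was called at 1.4, 2.1 or 2.8 mM against 0 mM. Pcna read 6.78, 6.59, 7.25 and 6.62 at 0 mM and between 6.88 and 7.60 on all treated arrays, with a range of dose means of 0.62. It rose 1.41-fold at 1.4 mM, 1.42-fold at 2.1 mM and 1.54-fold at 2.8 mM against 0 mM (limma, adjusted p = 0.0492, 0.0323 and 0.0112), calls lost in 23, 10 and 2 of 33 alternatives. The second was lost with any 2.1 mM array or with 0 mM replicate 1, 2 or 4 omitted. Against 0.14 mM (7.22, 7.32 and 7.30) its log2 difference at 2.1 mM was 0.03 (SE 0.162; limma, adjusted p = 0.918), and only 3 of 4 untreated arrays lay below the treated range. Of the loader subunits Rfc2, Rfc4 and Rfc5 were called higher at 3.5 than at 2.1 mM, by 2.66-fold, 2.71-fold and 2.25-fold. Rfc2 read 3.28, 3.22 and 3.20 at 2.1 mM and 4.92, 4.40 and 4.61 at 3.5 mM.

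Rpa3, the small subunit of the single-strand binding complex, was called in both directions. Its signals were 3.66, 3.79, 3.99 and 3.80 at 0 mM, 3.79, 3.84 and 3.93 at 0.14 mM, 3.38, 3.22 and 3.07 at 2.1 mM, 4.18, 3.09 and 3.04 at 2.8 mM and 4.66, 4.47 and 4.37 at 3.5 mM. The 3.5 mM arrays lay above every other array of the series for this gene, and those of 2.1 mM below all of 0 and 0.14 mM. It fell 1.51-fold at 2.1 mM against 0 mM (log2 -0.59, SE 0.194; limma, adjusted p = 0.0485), a call lost in 22 of 33 alternatives. From 2.1 to 3.5 mM it was 2.43-fold higher (log2 1.28, SE 0.207; limma, adjusted p = 0.000315). Rpa2 had log2 differences of -0.48 at 2.1 against 0 mM and 0.90 at 3.5 against 2.1 mM, neither called. Rpa1 had an F test adjusted p of 0.996 among the treated doses (limma). Its value of 2.57 on 0 mM replicate 1 widened the pooled spread used there.

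Of the polymerase and primase genes, Pole, Pole2, Pold1 and Prim2 were called higher at 3.5 than at 2.1 mM. Pold1, the catalytic subunit of polymerase delta, read 3.03, 2.89 and 2.67 at 2.1 mM and 4.64, 4.32 and 4.07 at 3.5 mM, 2.79-fold higher (log2 1.48, SE 0.354; limma, adjusted p = 0.00632). Pole read 3.19, 2.29, 2.89 and 2.11 at 0 mM and 1.76, 1.67 and 1.30 at 2.1 mM, and fell 2.06-fold (log2 -1.04, SE 0.334; limma, adjusted p = 0.0438), a call lost in 11 of 33 alternatives. The genes of polymerase alpha and the small primase subunit, Pola1, Pola2 and Prim1, had log2 differences of -0.22, -0.29 and -0.31 at 2.1 against 0 mM and were not called there.

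Lig1, the ligase that joins lagging strand fragments, read 4.00, 4.18, 4.79 and 4.06 at 0 mM, 4.22, 4.40 and 4.40 at 0.14 mM, 3.44, 3.25 and 3.24 at 2.1 mM and 4.60, 4.24 and 4.82 at 3.5 mM. The 2.1 mM arrays lay below all of the other 3 doses. It fell 1.93-fold against 0 mM (log2 -0.95, SE 0.272; limma, adjusted p = 0.0249) and 2.04-fold against 0.14 mM (log2 -1.03, SE 0.290; limma, adjusted p = 0.0251). Both calls were lost when any 2.1 mM array was omitted, the first also without 0 mM replicate 3 and the second without any 0.14 mM array. From 2.1 to 3.5 mM Lig1 was 2.36-fold higher (limma, adjusted p = 0.00536). Fen1, the flap nuclease of the same step, had log2 differences of -0.18, -0.41 and 0.24 in these comparisons, none called. Chaf1b fell 2.18-fold at 2.1 against 0.14 mM (limma, adjusted p = 0.0447) and was 2.52-fold higher at 3.5 than at 2.1 mM (adjusted p = 0.0134), with 1.90, 1.72 and 1.75 at 2.1 mM and 3.68, 2.73 and 2.96 at 3.5 mM. The first call was lost in 10 of 33 alternatives, the second when 3.5 mM replicate 1 was omitted.

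In nucleotide supply, Tyms had the lowest p of the F test among treated doses (limma, adjusted p = 0.000834) and was lower at 3.5 than at 2.1 mM, unlike the other 16 genes called there. Its signals were -0.33, -0.63, -0.09 and -0.55 at 0 mM, -0.19, -0.02 and 0.02 at 0.14 mM, -0.60, -0.75 and -0.80 at 2.1 mM, between -1.44 and -0.93 on the 3 arrays of 2.8 mM and -1.25, -1.15 and -1.46 at 3.5 mM. Every array of 2.8 and 3.5 mM lay below those of 0, 0.14 and 2.1 mM. It fell 1.85-fold at 3.5 against 0 mM (log2 -0.89, SE 0.172; limma, adjusted p = 0.00227), a call kept in all 32 alternatives that held the probe set. This probe set, the brightest of 4 for Tyms, read near or below the array median throughout, and 32.4% of all probe sets had a lower mean. It thus stands for a dim signal, and whether it follows the Tyms transcript was not tested. Rrm2, the regulated subunit of ribonucleotide reductase, read 5.91, 4.66, 5.76 and 4.62 at 0 mM, 2.92, 5.66 and 5.47 at 1.4 mM, 4.59, 4.70 and 4.41 at 2.1 mM and 6.07, 4.98 and 4.61 at 3.5 mM. Its log2 difference was -0.67 at 2.1 against 0 mM (SE 0.55; limma, adjusted p = 0.457), and the groups overlapped. Rrm1, the large subunit, had -0.13 (SE 0.346; limma, adjusted p = 0.85).

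**Figure D4:**
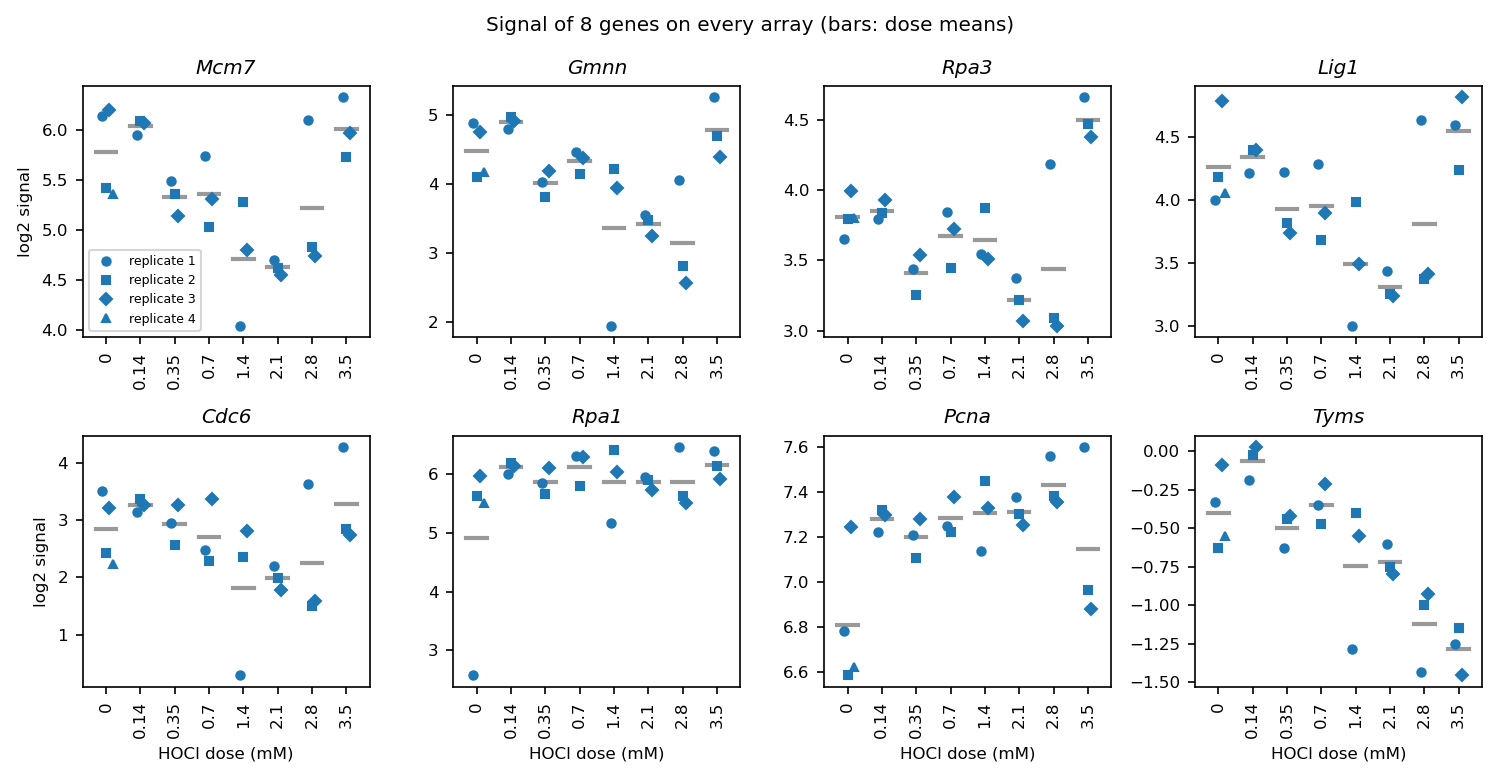
Log2 signal of 8 replication genes on each array by HOCl dose (mM); symbols mark the replicate number and grey bars the dose means. Mcm7, Rpa3 and Lig1 are lowest at 2.1 mM and high at 3.5 mM, Tyms is lowest at 3.5 mM, and Rpa1 has a single value of 2.57 at 0 mM.

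Most calls among other genes of the pathway had these directions too. Of 31 further replication genes measured, 8 were lower and 1 higher at 2.1 mM against 0 mM, and 10 were higher and 1 lower at 3.5 against 2.1 mM. Of all probe sets 6.09% were lower and 7.26% higher in the first comparison, and 7.66% higher and 9.38% lower in the second, which is also the background of the lists that follow. Tk1, thymidine kinase, fell at 2.1 mM (log2 -1.79, SE 0.493; limma, adjusted p = 0.0205) and was higher at 3.5 than at 2.1 mM (log2 2.44, SE 0.527; limma, adjusted p = 0.00302). Dnmt1, the maintenance DNA methyltransferase, fell at 2.1 mM by 1.51 on the log2 scale (SE 0.315; limma, adjusted p = 0.00383). Pole4, a small polymerase epsilon subunit, was the one that rose (log2 1.22, SE 0.303; limma, adjusted p = 0.0114). Among 19 genes of mitosis, which follows S phase, 18 fell at 2.1 mM against 0 mM (median log2 -1.83), none was called at 3.5 mM (9.32% of probe sets), and 19 were higher at 3.5 than at 2.1 mM (median 1.90). Of 14 genes of checkpoints and repair 7 fell at 2.1 mM, and 7 were higher at 3.5 than at 2.1 mM, Fancd2 by 1.78 (SE 0.282; limma, adjusted p = 0.00027). These lists were chosen with results of these data known.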

How the data were processed

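Labelled cRNA of each sample was hybridized to 1 array. The authors deposited log2 signals per probe set, made with RMA per the submitters' processing notes; its version is not given in the sources used here. Each array's median is 0. The labels do not give the base; 2 was taken from the spread of signals, and all folds rest on it. Of 45101 probe sets 64 controls were set aside, and 45037 were tested with no filter. Symbols came from the platform annotation (34945 probe sets with 1 symbol, 932 with several, 9160 with none).

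A mean per dose was fitted to the 25 arrays with limma 3.58.1 in R 4.3.3 (17 residual and 2.99 prior degrees of freedom). SE is that of the fit. Two-sided p-values underwent Benjamini-Hochberg adjustment over all probe sets. The fit was also run on simulated data with independent noise. At 2.1 against 0 mM it called 49.3%, 76.1% and 98.5% of added 1.5-fold, 2-fold and 4-fold changes. The simulation held no shifts shared by the genes of an array, so it does not test the fit under those described above. The members, lists and comparisons were chosen with earlier results of these data known.

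Genes named were, by rule, the pair with the lowest F test p in each role, the 3 largest called rises and falls at each dose, the widest and narrowest range of dose means, and Mcm2, Mcm5, Cdc6, Pcna and Rrm2. Others were named after their values were seen. Replicate numbers were not used to pair the arrays in the main fit. Of 84 pairs with the same number, 19 had residual correlations above 0.1 (median -0.0256, from -0.698 to 0.555). Pairs of unlike number were not compared, so pairing was not excluded.

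Alternatives were quantile normalization, a filter on dim probe sets, a robust prior with a trend, array weights, a replicate block, spike level as a term, the low spike level alone, the probe set of largest variance, only the groups compared, and each array left out. Weights estimated gene by gene and the comparison of 3.5 with 2.1 mM were chosen after seeing the data.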

Additional observations from a re-analysis of the deposited data

Results flagged for a closer look

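Single untreated arrays stood far from the others in 2 of 47 groups of 4 untreated values checked (39 genes and 8 list means). Chance sets about 1 in 20 such groups apart. Cdt1 read 4.39 on 0 mM replicate 1, with the other 3 arrays between 5.60 and 5.75. Rpa1 read 2.57 on the same array, with the others between 5.51 and 5.97. In Cdt1 a second probe set read 4.55 there and 4.35 to 4.69 on the others, and in Rpa1 the second probe set read 5.40 and 4.39 to 5.11. Groups of 3 arrays were not checked in this way.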

How the results depend on the processing

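Of 1889 checks of the 58 called results of single genes, 1576 kept the call, 313 lost it, and 0 reversed in direction. An F test has no direction to reverse. Many other checks, such as the omission of an array of a dose not compared, left the difference of dose means unchanged. The 0 is therefore no measure of how firm the directions are. Numbers of genes called follow. With array weights (gene-by-gene, since the default estimate did not converge) the F tests against 0 mM and among treated doses called 31 and 24. Weighted, the doses from 0.14 to 0.7 mM gave 18, 5 and 3 against 0 mM, and those from 2.1 to 3.5 mM gave 13, 11 and 13. These comparisons lean on 0 mM replicates 2 and 4, which had the larger untreated weights. Against 0.14 mM the weighted counts were 5, 9, 27, 21 and 5 at 0.35, 1.4, 2.1, 2.8 and 3.5 mM. With spike level as a term the F tests called 3 and 4, 1.4 to 2.8 mM called 0 against either reference, and 3.5 mM called 1 against either. Because only 0.35 and 0.7 mM hold both levels, the term rests on those doses and cannot separate spike level from the higher doses. With the replicate number as a block, 1.4 against 0 mM and 3.5 against 0.14 mM called 1 each, and no other count moved by over 1.5 times. Fits of only the groups compared called 0 at 1.4 and 2.8 mM against 0 mM, and 4, 30 and 6 at 0.35, 2.1 and 3.5 mM against 0.14 mM. Quantile normalization called 5 and 8 at 1.4 and 2.1 mM against 0.14 mM. Without dim probe sets 2.8 against 0.14 mM called 1, and with a trended prior 3.5 against 0.14 mM called 1. The cause of these shifts was not tested. With each array left out, the F tests called 4 to 14 each. Against 0 mM the ranges by dose were 0 to 0, 0 to 1, 0 to 1, 0 to 5, 0 to 7, 2 to 9 and 1 to 5. Against 0.14 mM they were 0 to 0, 0 to 0, 0 to 5, 1 to 9, 1 to 10 and 1 to 4, and 3.5 against 2.1 mM called 7 to 18. Few arrays per dose, the spread at 0, 1.4 and 2.8 mM and the spike level limit these counts.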

Other observations

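Regulators of S phase entry were read from a list of their own. Of 21 measured, 3 fell at 2.1 mM against 0 mM, 7 at 2.8 mM and 2 at 3.5 mM, and none rose at these doses (limma, adjusted p under 0.05). Of all probe sets 6.09%, 6.26% and 5.4% fell, and 7.26%, 5.64% and 3.93% rose. The list itself was not tested against these shares. E2f3, an activating E2F factor, had a log2 difference of 0.00 at 2.1 mM but fell at 3.5 mM by 1.39 (SE 0.214; limma, adjusted p = 0.000271), while 16 replication genes were higher at 3.5 than at 2.1 mM. E2f2, of the same subfamily, fell by 1.10 at 2.1 mM (SE 0.212; limma, adjusted p = 0.00235) and by 0.84 at 3.5 mM (SE 0.212; limma, adjusted p = 0.0159). E2f1 had -0.06 and 0.64 at these doses (adjusted p = 0.915 and 0.182). Ccna2, the cyclin of S phase and later, fell by 1.70 at 2.1 mM (SE 0.443; limma, adjusted p = 0.015) and was higher at 3.5 than at 2.1 mM by 2.01 (SE 0.473; limma, adjusted p = 0.00557). The other gene called at 2.1 mM was Rbl2, a relative of Rb1, which fell by 1.11 (SE 0.289; limma, adjusted p = 0.0151). Rb1 and Cdkn1b had -1.85 and -1.18 there and did not pass (limma, adjusted p = 0.0506 and 0.0626). Cdkn1a, the inhibitor p21, had -0.21 at 2.1 mM and -0.66 at 3.5 mM and passed at neither.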
